A study of Mus musculus with 4 samples.

Results

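The transcripts of 35 genes of fatty acid oxidation and ketone body metabolism were followed through the cells of the mouse colon. The genes were chosen by symbol and not by a limit on measured values, but with earlier results of these data known. All 35 symbols were found among the 32285 genes counted. They comprise 4 acyl-CoA dehydrogenases, 9 enzymes of the later steps of the oxidation spiral, 3 genes of the carnitine shuttle, 3 of the electron transfer flavoprotein system, 5 of fatty acid activation and thioester cleavage, 3 peroxisomal enzymes, 1 ketone body enzyme with 1 monocarboxylate transporter, 2 genes of fatty acid uptake and binding and 4 regulators. Levels are given in CPM, the UMIs (unique molecular identifiers, each standing for 1 captured transcript) of a gene per 1000000 UMIs of the same cells. Counts of the 3' library do not scale with transcript length. Levels of different genes were not tested against each other.

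In β-oxidation a fatty acid is activated to its CoA ester, carried into the mitochondrion by the carnitine shuttle, and shortened stepwise by a dehydrogenase, a hydratase, another dehydrogenase and a thiolase. Electrons from the acyl-CoA dehydrogenases pass to the respiratory chain through the electron transfer flavoprotein. Colonocytes, the absorptive cells of the colon, are known to take up butyrate made by bacteria through monocarboxylate transporters and to oxidise it, and they can also form ketone bodies from acetyl-CoA. PPARα, PPARγ and the coactivator PGC-1α, encoded by Ppara, Pparg and Ppargc1a, are regulators of many of these genes.

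Colon cells of C57/BL6J mice were pooled from 4 conditions, marked with 1 hashtag antibody each, sorted for viability and loaded together, in 2 batches. The conditions were untreated wild type, untreated JUP-KO (Jup encodes plakoglobin, a protein of cell junctions) and each genotype under dextran sulfate sodium (DSS, an agent that damages the colonic epithelium). How Jup was removed, in which cells, and the age and number of mice are not given in the sources used here, nor whether the batches are separate mice, so that p-values measure the spread between sums of cells, which may be technical. The names of the 4 tags are Ctrl_WT, TG_WT, Ctrl_DSS and TG_DSS. Read by name, TG_WT is untreated JUP-KO and Ctrl_DSS is wild type with DSS, whereas by the order of antibody numbers in the protocol these change places; Ctrl_WT is untreated wild type and TG_DSS is JUP-KO with DSS by both readings. Jup in epithelial-like cells, in batches 1 and 2, was at 61.4 and 71.8 CPM in cells labelled Ctrl_WT, 70.7 and 79.99 in TG_WT, 15.2 and 9.19 in Ctrl_DSS and 31.1 and 52.3 in TG_DSS. It was thus not low in the cells that are JUP-KO by tag name and was lowest in those labelled Ctrl_DSS, which goes against the reading by name. Groups are therefore called by their tag throughout, and no difference between tags is assigned to genotype or DSS.

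After filtering, 7155 cells of batch 1 and 6471 of batch 2 remained, with medians of 12309 and 7091 UMIs and of 3143 and 2188 genes. Of these 13626 cells 5146 carried a single tag, whereas 67.1% and 44.4% of cells of the batches carried none. Between 106 and 1320 cells had a given tag in a batch, and 14 barcodes occurred in both batches. Under the highest-tag rule, an alternative, the same tag was given to 87 of 164 Ctrl_WT and 172 of 288 Ctrl_DSS cells in batch 1. There it was given to 416 of 463 TG_WT and 601 of 1251 TG_DSS cells. In batch 2 these were 68 of 106 Ctrl_WT, 230 of 392 Ctrl_DSS, 1162 of 1162 TG_WT and 1090 of 1320 TG_DSS cells. Cells were clustered without the 35 genes and without a wider list of 77 related genes, and clusters were named "-like" from fixed marker lists. Neutrophil and macrophage markers were also found in epithelial-like cells: they made up 151 to 790 CPM in Ctrl_WT, Ctrl_DSS and batch 1 TG_WT, and 7221 CPM in TG_WT of batch 2 and 8526 and 18393 CPM in TG_DSS. Every level by tag in TG_DSS and in batch 2 of TG_WT is therefore a share of UMIs that included this leukocyte RNA. Clusters 11 and 20, which mixed epithelial and neutrophil markers, were not counted as epithelial-like. They held 190 and 35 TG_DSS cells in batch 1 and 84 and 35 in batch 2, beside 97 and 75 kept. In batch 2 they held 48 and 23 TG_WT cells, beside 126 kept. Elsewhere they held at most 9 cells of a tag in a cluster and batch. Levels of TG_DSS in epithelial-like cells thus leave out more such cells than they keep.

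The 35 genes together were at 6745 and 7873 CPM in colonocyte-like cells of batches 1 and 2, at 4264 and 4605 CPM in stem and transit-amplifying-like cells and at 519.8 and 532 CPM in neutrophil-like cells. A single gene, Fabp2, which encodes the intestinal fatty acid binding protein, gave 33.8% and 40.8% of the summed UMIs in colonocyte-like cells. Without Fabp2 the sum was 4465 and 4662 CPM in colonocyte-like, 3323 and 3558 in stem and transit-amplifying-like, 2809 and 2712 in tuft-like, 2405 and 2291 in goblet-like and 2303 and 1852 in enteroendocrine-like cells. It was 1687 and 1135 CPM in T, NK and innate lymphoid-like, 1554 and 1128 in macrophage and monocyte-like and 399 and 427 in neutrophil-like cells. Colonocyte-like cells were the highest of these 8 classes in both batches and neutrophil-like cells the lowest, while the order of goblet-like and enteroendocrine-like cells rested on differences close to those between the batches. Free RNA, taken from barcodes with at most 100 UMIs, held 2678 and 2647 CPM without Fabp2 and 1630 and 2301 CPM of Fabp2. All leukocyte classes, goblet-like and enteroendocrine-like cells lay below these ambient values, and tuft-like cells lay close to the ambient sum without Fabp2. How much of the level in any class came from free RNA was not estimated.

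**Figure D1:**
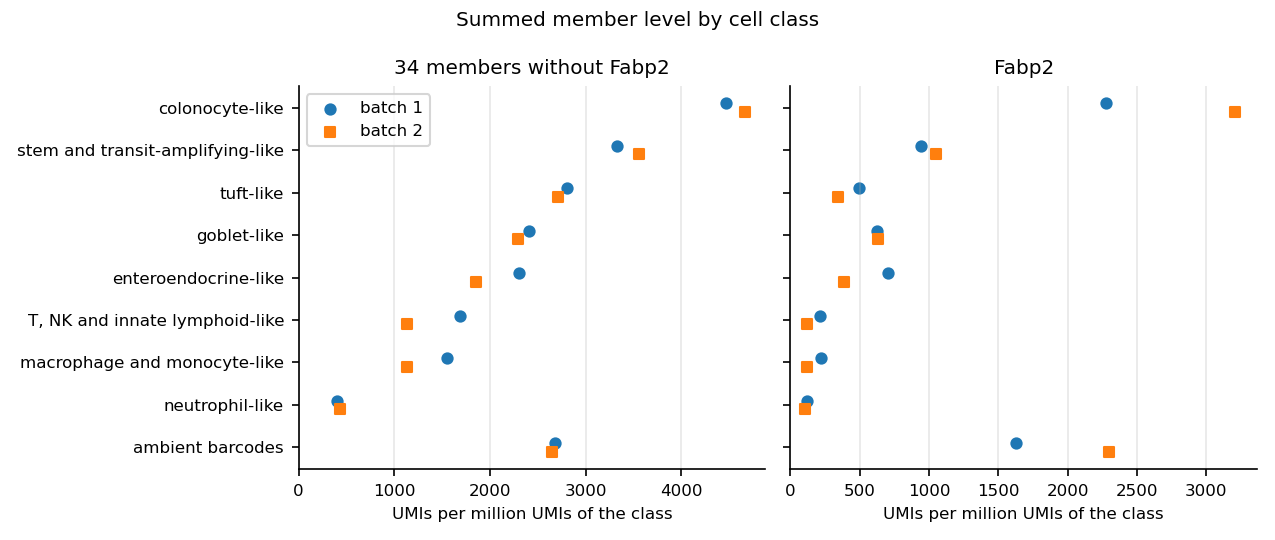
Summed level of the members in 8 cell classes and in ambient barcodes, in CPM, for the 34 members without Fabp2 (left) and for Fabp2 (right); each point is 1 batch over all its cells, tagged or not. Colonocyte-like cells are highest in both batches on both sides, and the neutrophil-like points at 399 and 427 on the left are under the ambient ones at 2678 and 2647.

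Whether the genes were higher in colonocyte-like cells than in other classes was tested on counts summed by class, tag and batch (at least 10 cells in a sum), with 8 colonocyte-like sums set against the sums of each other class in 1 fit. Calls are at an adjusted p below 0.05 by edgeR's quasi-likelihood test, Benjamini-Hochberg adjusted over 12884 genes. Against goblet-like cells (7 sums) 30 members were higher and 1 lower, where 15.8% of all genes were higher and 19.1% lower. Against stem and transit-amplifying-like cells (8 sums) 18 were higher and 2 lower, where 17% of all genes were higher and 19.1% lower. Against enteroendocrine-like cells (4 sums) 27 were higher and 2 lower, beside 16.5% and 22.6% of all genes. The members' median log2 differences were 1.30, 0.63 and 1.71 in these comparisons, and those of all genes -0.12, -0.04 and -0.17.

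Against leukocytes the counts were alike. Against neutrophil-like cells (4 sums) 29 members were higher and 2 lower, beside 25.9% and 28.3% of all genes. Against macrophage and monocyte-like cells (8 sums) 29 were higher and 2 lower, beside 22.9% and 31.7%, and against T, NK and innate lymphoid-like cells (5 sums) 31 were higher and 0 lower, beside 23.3% and 27.8%. The members' median log2 differences were 2.33, 1.84 and 2.07, against 0.09, -0.21 and -0.12 for all genes. Tuft-like cells gave 1 sum of 10 cells or more and were not compared further.

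Of the 35 members, 17 were higher in colonocyte-like cells in all 6 comparisons: Acadvl, Acadl, Acadm, Acads, Hadha, Hadhb, Acaa2, Ech1, Decr1, Cpt1a, Cpt2, Acaa1a, Acaa1b, Ehhadh, Slc16a1, Fabp2 and Pdk4. A further 9 were higher in 5 of them, and Acsl1 and Cd36 in 0. The share of all genes higher in all 6 was not worked out, and the comparisons share the same colonocyte-like sums. With library-size scaling in place of TMM, an alternative chosen after the data were seen, the median of all genes moved to 1.44 against neutrophil-like, -0.55 against enteroendocrine-like and -0.40 against T, NK and innate lymphoid-like cells. The members called higher then numbered 29 against goblet-like, 14 against stem and transit-amplifying-like, 26 against enteroendocrine-like, 31 against neutrophil-like, 30 against macrophage and monocyte-like and 29 against T, NK and innate lymphoid-like cells. Of all genes 14.9%, 12.6%, 11.4%, 55.1%, 27% and 19.5% were called higher in that order. The count against enteroendocrine-like cells, 27, was 17 with batch 1 alone, beside 5.85% of all genes. It was 6, beside 2.27%, when cells were assigned by a marker gate per cell, which left 1 enteroendocrine-like sum of 16 cells.

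**Figure D2:**
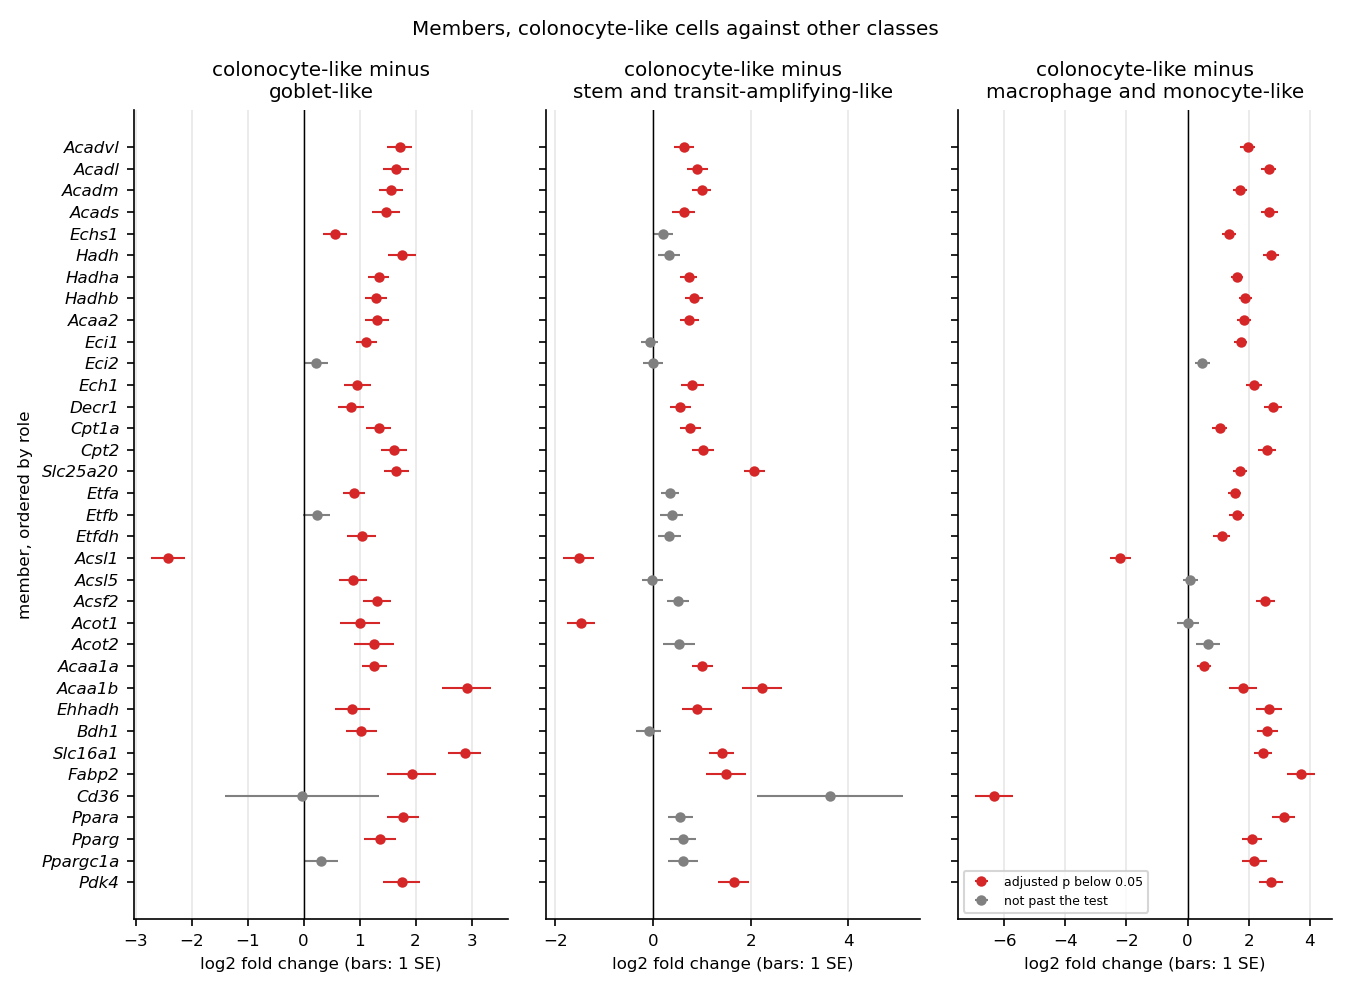
Log2 fold change of each of the 35 members, colonocyte-like minus goblet-like (left), stem and transit-amplifying-like (middle) and macrophage and monocyte-like cells (right); points are fitted values, bars 1 SE, and red marks an adjusted p below 0.05. Most points lie right of 0, Acsl1 lies left of it in all 3 panels, and Cd36 lies at -6.35 on the right.

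The 4 acyl-CoA dehydrogenases, which take the first oxidative step for chains of different length, were higher in colonocyte-like cells in all 6 comparisons with TMM scaling. Acadl, the long-chain enzyme, had a lowest, median and highest value of 332, 363 and 588 CPM over the 8 colonocyte-like sums, against 86.1, 129.7 and 153 CPM over 7 goblet-like sums and 183, 233 and 343 CPM over 8 stem and transit-amplifying-like sums. The colonocyte-like and goblet-like ranges did not overlap, while those of colonocyte-like and stem and transit-amplifying-like cells did. Its log2 difference was 1.66 (SE 0.23, edgeR adjusted p = 1.0e-07) from goblet-like and 0.91 (SE 0.21, adjusted p = 6.2e-04) from stem and transit-amplifying-like cells. Acadm, the medium-chain enzyme, was at 204 ± 31.2 CPM (SD, n = 8) in colonocyte-like cells, and its log2 differences were 1.56 (SE 0.21) and 0.99 (SE 0.20). Acadvl, the very-long-chain enzyme, was at 106 ± 18.2 CPM (SD, n = 8), with log2 differences of 1.72 (SE 0.23) and 0.63 (SE 0.20). Acads, the short-chain enzyme that takes butyryl-CoA, differed by 1.47 (SE 0.25) and 0.63 (SE 0.24). With library-size scaling Acadvl and Acads both differed by 0.39 from stem and transit-amplifying-like cells, and neither passed the test.

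Of the 9 genes of the later steps, 8 were higher in colonocyte-like than in goblet-like cells and 5 than in stem and transit-amplifying-like cells. Hadh encodes the short-chain 3-hydroxyacyl-CoA dehydrogenase, and Hadha and Hadhb the subunits of the trifunctional protein. Hadh had a lowest, median and highest value of 284, 378 and 429.5 CPM in colonocyte-like, 64.9, 111 and 164 in goblet-like and 252, 337 and 455 in stem and transit-amplifying-like sums. Its colonocyte-like values lay above all goblet-like ones and within the range of the stem and transit-amplifying-like ones, from which the difference of 0.33 (SE 0.23, edgeR adjusted p = 0.28) did not pass the test. Hadha and Hadhb were higher than in stem and transit-amplifying-like cells by log2 0.73 (SE 0.18) and 0.84 (SE 0.18), as were the thiolase gene Acaa2 by 0.74 (SE 0.19), Ech1 by 0.81 (SE 0.23) and Decr1 by 0.56 (SE 0.22). The values of the hydratase gene Echs1 and of the enoyl-CoA isomerase genes Eci1 and Eci2 were 0.20 (SE 0.20), -0.07 (SE 0.17) and -0.01 (SE 0.21) in that comparison, none past the test. That of Decr1 was 0.31 with library-size scaling, which did not pass either.

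All 3 carnitine shuttle genes were higher in colonocyte-like than in stem and transit-amplifying-like cells, with a median log2 difference of 1.02. The medians were 0.77 for the dehydrogenases and 0.35 for the electron transfer genes, and the difference between roles was not tested. Slc25a20, the carrier that exchanges acylcarnitine for carnitine across the inner membrane, had a lowest, median and highest value of 142, 174 and 225 CPM in colonocyte-like and 31.5, 45.5 and 104 CPM in stem and transit-amplifying-like sums, without overlap. The log2 difference was 2.07 (SE 0.22, edgeR adjusted p = 3.1e-10). Against neutrophil-like cells, in which it lay between 58.2 and 67.4 CPM, the difference of 0.09 (SE 0.27) did not pass the test with TMM scaling and was 1.52 with library-size scaling. Cpt1a, the outer-membrane transferase that controls entry, was at 107 ± 26.9 CPM (SD, n = 8) in colonocyte-like cells, with a log2 difference of 0.76 (SE 0.21) from stem and transit-amplifying-like cells, and Cpt2, its partner at the inner membrane, differed by 1.02 (SE 0.22). Of the electron transfer genes, Etfa and Etfdh were higher than in goblet-like cells, by 0.91 (SE 0.20) and 1.04 (SE 0.25), Etfb was not called at 0.23 (SE 0.25), and 0 of 3 were called against stem and transit-amplifying-like cells, with values between 0.34 and 0.38.

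Promoters of 3 of these genes are shown because they hold a hexamer read by nuclear receptors such as the PPARs; they were picked for that match, and most members lack it in this window. The 250 bases before the annotated start (RefSeq, GRCm38.p6, on the strand of the gene, 5′ to 3′) have the AGGTCA hexamer or its complement TGACCT in capitals. They lie at chr3:153944644-153944893 on the minus strand for Acadm, chr11:70015429-70015678 on the minus strand for Acadvl and chr19:3323051-3323300 on the plus strand for Cpt1a, the last within the longer GENCODE M21 span of that gene.
Acadm promoter: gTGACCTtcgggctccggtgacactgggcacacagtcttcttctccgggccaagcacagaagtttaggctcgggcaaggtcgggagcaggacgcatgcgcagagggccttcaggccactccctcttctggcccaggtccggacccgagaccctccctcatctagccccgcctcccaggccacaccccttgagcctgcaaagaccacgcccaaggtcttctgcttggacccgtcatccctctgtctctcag
Acadvl promoter: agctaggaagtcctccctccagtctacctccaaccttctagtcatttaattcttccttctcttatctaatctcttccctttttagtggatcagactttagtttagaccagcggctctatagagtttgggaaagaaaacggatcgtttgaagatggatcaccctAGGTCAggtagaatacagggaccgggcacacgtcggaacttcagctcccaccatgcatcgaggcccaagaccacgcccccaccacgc
Cpt1a promoter: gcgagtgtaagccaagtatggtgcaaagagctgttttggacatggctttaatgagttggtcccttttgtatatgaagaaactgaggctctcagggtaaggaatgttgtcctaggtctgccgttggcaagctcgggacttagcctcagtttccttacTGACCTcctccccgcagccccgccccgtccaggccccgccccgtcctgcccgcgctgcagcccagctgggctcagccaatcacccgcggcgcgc
The first base of the match stands 249 bases before the start in Acadm, 87 in Acadvl and 94 in Cpt1a. Searched on both strands, AGGTCA was in 7 of 37 promoters that matched 33 of the 35 members (18.9%; Acadm, Acadvl, Cd36, Cpt1a, Echs1 and Pparg), beside 14.02% of all 32851 promoters in the RefSeq table. The direct repeat of AGGTCA, with 1 base of any kind between its copies, was in 0 of 37, beside 0.033% of all, and the extended site TCAAGGTCA, which contains the hexamer, in 0 of 37, beside 0.387%. Acaa2 and Decr1 were not matched to the table. These are matches of letters in 1 window per start, and Cd36, which shares the hexamer, was not called higher in colonocyte-like cells in any comparison.

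Lower levels in colonocyte-like cells were called for 3 of the 5 members of activation and thioester cleavage (Acsl1, Acot1 and, with TMM but not with library-size scaling, Acsl5), 1 of the 2 of uptake and binding (Cd36) and 1 of the 4 regulators (Ppargc1a), each in at least 1 comparison. Acsl1, a long-chain acyl-CoA synthetase, was lower in colonocyte-like cells in 5 of 6 comparisons: it had a lowest, median and highest value of 1.10, 4.62 and 8.06 CPM in colonocyte-like sums, 17.6, 23.5 and 40.8 CPM in goblet-like sums and 9.81, 13.5 and 35.98 CPM in stem and transit-amplifying-like sums. No colonocyte-like value reached the lowest of either other class. The log2 differences were -2.42 (SE 0.30, edgeR adjusted p = 8.1e-09) from goblet-like, -1.52 (SE 0.32) from stem and transit-amplifying-like, -2.11 (SE 0.41) from enteroendocrine-like, -2.20 (SE 0.34) from macrophage and monocyte-like and -4.03 (SE 0.36) from neutrophil-like cells. Over all cells, tagged or not, it was at 6.29 and 6.70 CPM in colonocyte-like and 33.5 and 32.3 CPM in goblet-like cells. Acsl5, a synthetase of the same family, was higher than in goblet-like cells by 0.88 (SE 0.24), was -0.01 (SE 0.22) from stem and transit-amplifying-like cells. Its difference from neutrophil-like cells was -0.86 (SE 0.30) with TMM and 0.59 with library-size scaling. Acsf2, a medium-chain synthetase, was higher in 5 comparisons, by 1.30 (SE 0.25) against goblet-like cells.

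The thioesterases Acot1 and Acot2, which release the fatty acid from its CoA ester in cytosol and mitochondria, are near-identical copies side by side on chromosome 12 (84009490-84018371 and 83987861-83993873, mm10), so the split of their UMIs is uncertain. Acot1 was lower in colonocyte-like than in stem and transit-amplifying-like cells, with a lowest, median and highest value of 4.95, 9.66 and 12.1 CPM against 16.4, 31.4 and 38.9 CPM. The ranges did not overlap and the log2 difference was -1.48 (SE 0.29, edgeR adjusted p = 5.6e-05). Against goblet-like cells Acot1 and Acot2 were higher, by 1.00 (SE 0.36) and 1.26 (SE 0.35). The peroxisomal thiolase genes Acaa1a and Acaa1b are also close copies. Acaa1b was higher in colonocyte-like cells in all 6 comparisons at low levels, 21.1 ± 12.8 CPM (SD, n = 8) against 2.00 CPM in the mean of 7 goblet-like sums (log2 2.91, SE 0.44). Acaa1a and the bifunctional enzyme gene Ehhadh were higher than in goblet-like cells by 1.27 (SE 0.22) and 0.87 (SE 0.31). With library-size scaling the Ehhadh difference was 0.78 and did not pass the test (edgeR adjusted p = 0.060).

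Slc16a1 encodes MCT1, a transporter of butyrate, lactate and ketone bodies. It had a lowest, median and highest value of 88.9, 184 and 220.0 CPM in colonocyte-like sums, 11.1, 17.6 and 47.6 CPM in goblet-like sums and 59.8, 71.1 and 141 CPM in stem and transit-amplifying-like sums. The lowest colonocyte-like value, from TG_WT of batch 2, was above all goblet-like values and within the stem and transit-amplifying-like range. The log2 differences were 2.88 (SE 0.29, edgeR adjusted p = 4.3e-11) and 1.41 (SE 0.26). Bdh1, the mitochondrial enzyme that interconverts acetoacetate and 3-hydroxybutyrate, was higher than in goblet-like cells by 1.03 (SE 0.28) and was -0.09 (SE 0.25) from stem and transit-amplifying-like cells, where its median was 93.1 CPM against 73.7 CPM in colonocyte-like sums.

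Fabp2 had a lowest, median and highest value of 1577, 2486 and 4124 CPM in colonocyte-like, 491, 725 and 935 CPM in goblet-like and 770, 1099 and 1217 CPM in stem and transit-amplifying-like sums. The ranges did not overlap, and the log2 differences were 1.93 (SE 0.44, edgeR adjusted p = 4.4e-04) and 1.496 (SE 0.41, adjusted p = 0.0033). Its ambient level of 1630 and 2301 CPM lay above all goblet-like and stem and transit-amplifying-like sums. Of the colonocyte-like sums, TG_WT of batch 1, at 1577 CPM, and Ctrl_WT of batch 2 were also below the ambient level of their batch. Ctrl_DSS of batch 1 was close to it, and the others were above. How much of the level in any class was free RNA was not estimated. Cd36, the scavenger receptor that takes up long-chain fatty acids, was at 1629 and 1402 CPM in 43 endothelial-like cells (161 and 81 UMIs), at 153 and 112 CPM in macrophage and monocyte-like, at 35.04 and 40.3 CPM in dendritic-like and at 0.337 and 0.766 CPM in colonocyte-like cells. It was lower in colonocyte-like than in macrophage and monocyte-like cells by log2 -6.35 (SE 0.62, edgeR adjusted p = 9.8e-12).

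Among the regulators Pdk4, the kinase that shuts pyruvate dehydrogenase and is a known PPAR target, was higher in colonocyte-like cells in all 6 comparisons, by 1.75 (SE 0.33) against goblet-like and 1.65 (SE 0.32) against stem and transit-amplifying-like cells. Its colonocyte-like sums had a lowest, median and highest value of 51.2, 77.7 and 243 CPM. Ppara was higher than in goblet-like cells by 1.78 (SE 0.28), with medians of 27.8 and 10.4 CPM, and differed from stem and transit-amplifying-like cells by 0.56 (SE 0.25, edgeR adjusted p = 0.076). Pparg was higher than in goblet-like cells by 1.36 (SE 0.29). It was at 170 and 168 CPM over all colonocyte-like cells and at 234 and 259 CPM over the 90 and 51 tuft-like cells, a difference that was not tested. Ppargc1a was lower in colonocyte-like than in enteroendocrine-like cells by -1.03 (SE 0.38, edgeR adjusted p = 0.028) and differed from goblet-like cells by 0.31 (SE 0.31), which did not pass the test. Its 4 enteroendocrine-like sums, all from TG_WT and TG_DSS, had a lowest, median and highest value of 19.3, 81.2 and 179 CPM. The colonocyte-like values were 23.4, 36.3 and 52.5 CPM, so that the ranges overlapped.

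Within the absorptive lineage the members did not share 1 pattern. The colonocyte-like class was made of clusters led by Car1 (cluster 8), by Slc10a2 and Tmigd1 (cluster 2), by Fxyd4 (cluster 7), by Aqp8 and Slc26a3 (cluster 6), by Aqp4 and Cyp2c68 (cluster 10) and by Clca4b, Ly6g and Cxcl5 (cluster 17). Of the 35 members, 26 had their highest level in the same one of these clusters in both batches: 16 in cluster 8, 6 in cluster 2, 2 in cluster 6, 1 in cluster 7 and 1 in cluster 10. The share of all genes that did so, or that were highest in cluster 8, was not worked out, so the counts are not read as particular to the members. The sum without Fabp2 was 5494 and 6130 CPM in cluster 8, 4512 and 4973 in cluster 2, 4346 and 4390 in cluster 10, 4342 and 4170 in cluster 7, 2891 and 3105 in cluster 6 and 2805 and 3042 in cluster 17. Each value is a sum over cells of 1 batch, and the clusters were not tested against each other. When the pathway genes were kept in the clustering, cluster 10 was grouped with stem and transit-amplifying-like cells.

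The Aqp8 and Slc26a3 cluster, whose leading genes mark surface colonocytes, was low in most spiral enzymes and high in the carrier. Hadh was at 444 and 467 CPM in cluster 8 and 112 and 112 CPM in cluster 6, Acads at 366 and 375 against 96.3 and 82.7, and Eci1 at 133 and 123 against 16.9 and 10.7. Slc25a20 ran the other way, with 358.5 and 357 CPM in cluster 6, 71.4 and 71.4 in cluster 10 and 32.8 and 21.5 in the cycling cluster 15 of stem and transit-amplifying-like cells. Ppargc1a was also highest in cluster 6, at 87.7 and 81.7 CPM, against 13.3 and 18.3 in cluster 17. Slc16a1 was highest in cluster 7, at 317 and 307 CPM, against 75.3 and 106 in cluster 17.

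Fabp2, Acaa1b and Pdk4 were highest in cluster 2. Fabp2 was at 4504 and 5939 CPM there and at 399 and 386 CPM in cluster 17, Acaa1b at 43.1 and 52.0 CPM there and 1.91 and 2.09 in cluster 10, and Pdk4 at 129 and 143 CPM there. Acot1 was highest in the stem and transit-amplifying-like cluster 4, at 42.9 and 49.2 CPM, and was at 0.868 and 0 CPM in cluster 6. Ppara was at 39.9 and 41.6 CPM in cluster 8 and 3.601 and 3.04 in cluster 17, and Acsf2 at 83.9 and 113 CPM in cluster 8 and 9.002 and 6.85 in cluster 17. Cluster 17 was low in Fabp2, Ppara and Acsf2 in both batches, though Fabp2 in batch 1 was as low in cluster 6, at 382 CPM. Its leading genes held Ly6g, a neutrophil marker, beside Clca4b, Cxcl5 and Duoxa2. In cluster 17, 3 markers of the neutrophil list were detected, against 11 in the neutrophil-like cluster 0 and 1 or 2 in the other colonocyte-like clusters.

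**Figure D3:**
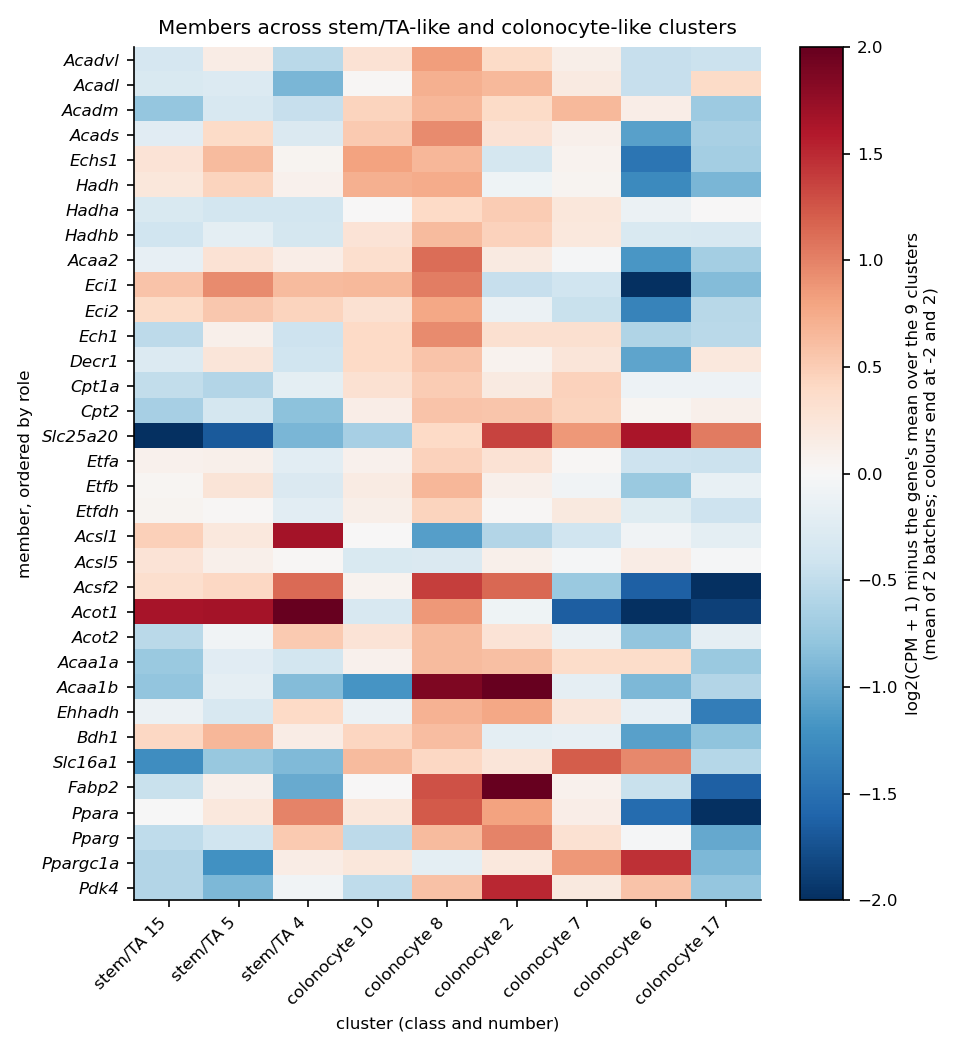
Level of 34 members (rows, by role) in 3 stem and transit-amplifying-like and 6 colonocyte-like clusters (columns), as log2(CPM + 1) minus the gene's mean over the 9 clusters, mean of 2 batches; Cd36, near 0 in these cells, is left out. Cluster 8 is red for most enzymes, cluster 6 is blue for most of them and red for Slc25a20, Slc16a1 and Ppargc1a, and Acot1 is red in the stem and transit-amplifying-like clusters.

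Whether the members differed between tags was asked within each class, with tag and batch as terms. In all epithelial-like cells together 0 of 35 members passed edgeR's test at an adjusted p below 0.05 in any of the 6 pairs, where 0% of 11870 genes passed in TG_WT against Ctrl_WT, 0.64% in Ctrl_DSS against Ctrl_WT, 0% in TG_DSS against TG_WT, 3.29% in TG_DSS against Ctrl_DSS, 0.0674% in Ctrl_DSS against TG_WT and 0% in TG_DSS against Ctrl_WT. These pairs share samples and are not independent of each other. Members with an unadjusted p below 0.05 numbered 0 higher and 5 lower, 1 and 15, 0 and 8, 0 and 2, 1 and 5, and 1 and 20 in that order. Of all genes 3.36%, 6.62%, 5.7%, 10.7%, 5.1% and 9.33% were higher and 2.53%, 8.26%, 4.93%, 6.71%, 8.78% and 7.96% lower at that unadjusted p. DESeq2 called 0, 4, 0, 1, 1 and 5 members, beside 0.253%, 5.74%, 3.27%, 4.54%, 5.7% and 3.2% of the genes to which it gave an adjusted p. The median log2 differences of the members were -0.33, -0.47, -0.26, -0.07, -0.18 and -0.58, beside all-gene medians between -0.01 and 0.01.

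The values furthest from 0 were those against cells labelled Ctrl_WT. Slc25a20 was at 97.4 and 146 CPM in Ctrl_WT, 60.0 and 70.8 in Ctrl_DSS, 108 and 144 in TG_WT and 78.0 and 92.4 in TG_DSS in batches 1 and 2. Both values of Ctrl_DSS and TG_DSS were below both of Ctrl_WT and TG_WT. The log2 difference of Ctrl_DSS from Ctrl_WT was -0.94 (SE 0.17, edgeR adjusted p = 0.062), the smallest adjusted p of any member. Acadvl was at 85.7 and 106 CPM in Ctrl_WT, 47.9 and 65.3 in Ctrl_DSS, 65.4 and 81.1 in TG_WT and 59.5 and 63.1 in TG_DSS. Both Ctrl_WT values were the highest of the 8, and the difference of Ctrl_DSS was -0.83 (SE 0.17, edgeR adjusted p = 0.079). Pparg was at 167 and 163 CPM in Ctrl_WT, 88.8 and 112 in Ctrl_DSS, 119 and 130 in TG_WT and 108 and 123 in TG_DSS, and the difference of Ctrl_DSS was -0.79 (SE 0.16, adjusted p = 0.071 by edgeR).

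Acsl1 had the opposite sign, at 8.47 and 10.8 CPM in Ctrl_WT, 27.6 and 24.4 in Ctrl_DSS, 14.7 and 15.2 in TG_WT and 23.2 and 17.7 in TG_DSS, with a difference of 1.39 (SE 0.28, edgeR adjusted p = 0.075) for Ctrl_DSS. It rests on 16 and 13 UMIs in Ctrl_WT. In TG_DSS against Ctrl_WT the smallest adjusted p was that of Acadm, at 141 and 192 CPM in Ctrl_WT and 94.0 and 121 in TG_DSS (log2 -0.79, SE 0.18, edgeR adjusted p = 0.114), and 29 of 35 members were lower in both batches, as were 21.7% of all genes. DESeq2 called Acadl, Acadvl, Pparg and Slc25a20 lower in Ctrl_DSS than in Ctrl_WT, and Acadm, Acads, Ech1, Etfb and Pparg lower in TG_DSS than in Ctrl_WT.

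The values of the other abundant members overlapped between tags or had adjusted p above 0.1. Fabp2 was at 2309 and 1349 CPM in Ctrl_WT, 1021 and 1734 in Ctrl_DSS, 1131 and 2191 in TG_WT and 1133 and 1092 in TG_DSS, and the batches disagreed on the order of Ctrl_WT, Ctrl_DSS and TG_WT. Etfb was at 468 and 517 CPM in Ctrl_WT, 432 and 522 in Ctrl_DSS, 462 and 459.5 in TG_WT and 353 and 362.5 in TG_DSS, lowest in TG_DSS in both batches. Hadh was at 271.5 and 376 CPM in Ctrl_WT, 242 and 249 in Ctrl_DSS, 260.1 and 214 in TG_WT and 211 and 246 in TG_DSS. Ech1 was at 260.4 and 407 CPM in Ctrl_WT, 221.5 and 269 in Ctrl_DSS, 286 and 255.5 in TG_WT and 188 and 216 in TG_DSS. Acadl, at 255 and 342 CPM in Ctrl_WT, 182 and 222 in Ctrl_DSS, 222.5 and 365.5 in TG_WT and 195 and 233 in TG_DSS, was lower with both DSS-named tags than with the others within each batch. Acads and Hadhb were lowest in TG_DSS in both batches, at 148 and 151 CPM and at 111.5 and 111 CPM, against 193 and 247 and 133 and 204.5 CPM in Ctrl_WT. Echs1 was at 207.5 and 204 CPM in Ctrl_WT and 211.5 and 203 in Ctrl_DSS, level with each other, and at 174 and 150.5 in TG_WT and 165 and 145.5 in TG_DSS. Etfa and Hadha lay between 203 and 299.7 CPM and between 144 and 231 CPM over the 8 sums. Over these 10 genes the log2 difference of Ctrl_DSS from Ctrl_WT ran from -0.61 for Acadl to -0.05 for Echs1, and its sign turned for Fabp2, Etfb and Echs1 when a sum was left out.

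Cell composition also differed between tags. Colonocyte-like cells made up 48.8% and 65.7% of epithelial-like cells labelled Ctrl_WT, 18.4% and 29.7% in Ctrl_DSS, 39.4% and 43.7% in TG_WT and 25.8% and 29.3% in TG_DSS. Goblet-like cells made up 17.1% and 11.4% in Ctrl_WT and 50.0% and 47.8% in Ctrl_DSS, and enteroendocrine-like cells 3.66% and 4.29% in Ctrl_WT and 26.8% and 36% in TG_DSS. The sum of the members without Fabp2 in epithelial-like cells was 3667 and 4702 CPM in Ctrl_WT, 3080 and 3394 in Ctrl_DSS, 3548 and 3532 in TG_WT and 2862 and 3250 in TG_DSS. In colonocyte-like cells alone it was 4378 and 5325, 4749 and 5507, 4568 and 4839, and 3985 and 5294 CPM in the same order. The ranges of the 4 tags overlapped there, and Ctrl_WT was not the highest in either batch. The shares leave out the mixed clusters, and leukocyte RNA differed between the same tags. The part of any of these in the values by tag was not tested.

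**Figure D4:**
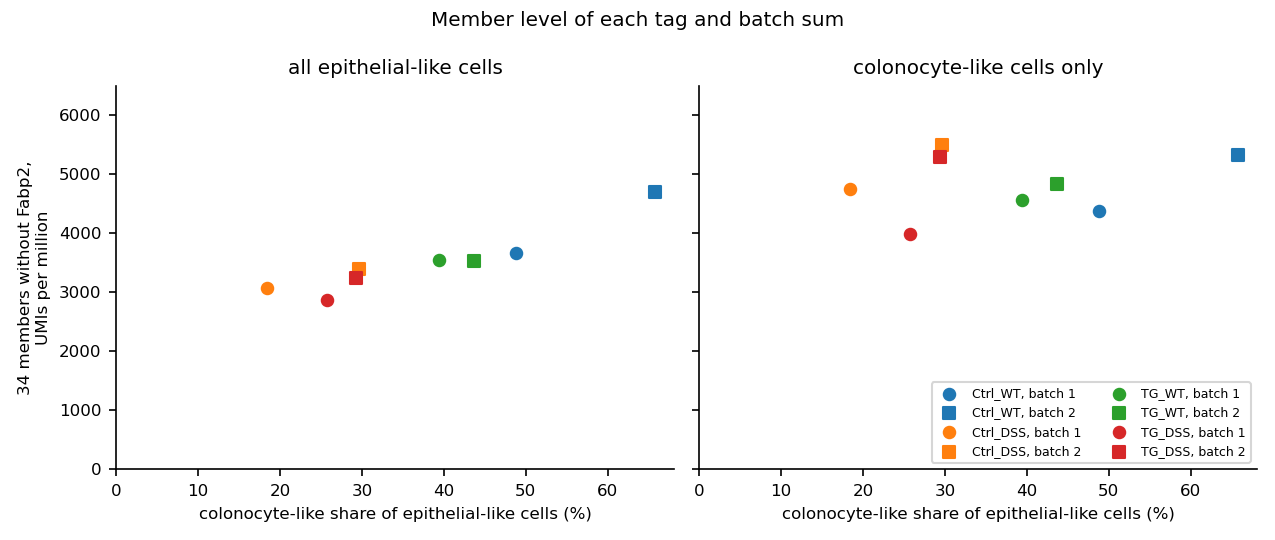
Summed level of 34 members without Fabp2 (vertical, CPM) against the colonocyte-like share of epithelial-like cells (horizontal, %), for the 8 sums of 4 tags and 2 batches, in all epithelial-like cells (left) and in colonocyte-like cells only (right). On the left the highest sum, Ctrl_WT of batch 2 at 4702, has the highest share of 65.7%, and on the right the sums lie between 3985 and 5507 across all shares.

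In colonocyte-like cells 33 members could be tested among 7693 genes, and 0 passed edgeR's test in any pair. The share of genes called was 0% in 3 pairs, 0.052% in TG_DSS against Ctrl_DSS and against Ctrl_WT, and 0.117% in Ctrl_DSS against TG_WT. The members' median log2 differences lay between -0.16 and 0.10, against a spread between batches of 0.17, DESeq2 called 0 members, and 3 member values over all pairs had an unadjusted p below 0.05, where 3.2% to 6.4% of all genes did in a pair. Slc25a20 was at 148 and 180 CPM in Ctrl_WT, 142 and 166 in Ctrl_DSS, 168 and 225 in TG_WT and 185 and 197 in TG_DSS. Acadvl was at 113 and 120, 81.9 and 117, 92.1 and 121, and 79.2 and 122 CPM in that order. For Slc25a20 Ctrl_DSS was the lowest tag in each batch, as in all epithelial-like cells, but TG_DSS was above Ctrl_WT. The Acadvl values overlapped between all tags. Fabp2 was at 3868 and 1650 CPM in Ctrl_WT, 1636 and 4124 in Ctrl_DSS, 1577 and 3877 in TG_WT and 2486 and 2486 in TG_DSS, and the batches put the tags in different orders. Echs1 was at 206 and 212 CPM in Ctrl_WT, 259 and 249.6 in Ctrl_DSS, 208 and 188 in TG_WT and 195 and 204 in TG_DSS, and Acads at 219 and 299, 319.7 and 342.5, 258 and 297, and 228 and 187 CPM. Both were highest in Ctrl_DSS in each batch, without passing the test. Pdk4 stood out at 243 CPM in TG_DSS of batch 2, with the other 7 sums between 51.2 and 85.9 CPM. Each sum held 22 to 112 cells.

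Goblet-like cells had 0 of 32 members called among 9391 genes, where 0% to 0.82% of genes were called (0% in TG_WT against Ctrl_WT and in Ctrl_DSS against TG_WT, 0.0106% in Ctrl_DSS and in TG_DSS against Ctrl_WT, 0.0532% in TG_DSS against TG_WT and 0.82% in TG_DSS against Ctrl_DSS). At an unadjusted p below 0.05 there were between 3 and 5 members in a pair, beside 5.85% to 13.3% of all genes. DESeq2 called 1 in TG_WT and 1 in Ctrl_DSS against Ctrl_WT, for which batch 2 had only 8 goblet-like cells, and 0.157% to 1.57% of all genes in a pair. In stem and transit-amplifying-like cells 0 of 32 were called among 7927 genes, where 0.0631% of genes were called in TG_DSS against TG_WT, 0.139% against Ctrl_DSS, 0.0757% against Ctrl_WT and 0% in the other pairs. DESeq2 called 0 members there, and at most 7 had an unadjusted p below 0.05 in a pair, beside 3.63% to 6.04% of all genes. The pair with 7, of which 6 were lower, was Ctrl_DSS against Ctrl_WT, with a median of -0.19.

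In enteroendocrine-like cells (25 members tested among 5784 genes, 0% called) and neutrophil-like cells (17 among 5349, 0.15% called) the one pair with enough cells, TG_DSS against TG_WT, gave 0 members by edgeR and by DESeq2 and medians of 0.13 and 0.12. At an unadjusted p below 0.05 there was 1 member in enteroendocrine-like and 0 in neutrophil-like cells. In macrophage and monocyte-like cells 0 of 18 members passed in any pair, and 0% of 4098 genes did. DESeq2 called 0. At an unadjusted p below 0.05 there was 1 member, Pparg, in each of the 3 pairs against Ctrl_WT and 0 in the others, beside 0.756% to 8.59% of all genes. Pparg, named here after its values were seen, was at 146 and 99.9 CPM in Ctrl_WT, 57.7 and 28.2 in Ctrl_DSS, 56.2 and 12.8 in TG_WT and 24.2 and 18.9 in TG_DSS. Both Ctrl_WT values, which rest on 19 and 8 UMIs, were above all others. The log2 differences from Ctrl_WT were -1.45 (SE 0.63) for Ctrl_DSS, -2.11 (SE 0.58) for TG_WT and -2.35 (SE 0.56) for TG_DSS, with edgeR adjusted p of 0.986, 0.889 and 0.488. Cd36 in these cells was at 836 and 424 CPM in Ctrl_WT, 259.6 and 522.5 in Ctrl_DSS, 276 and 30.4 in TG_WT and 17.6 and 172 in TG_DSS, with 13 to 364 cells in a sum. Both Ctrl_WT values were above those of TG_WT and TG_DSS, and the Ctrl_DSS values lay between and among them. The mix of cells in this class also differed: cluster 23, led by genes such as Mrc1 and Cd163, gave 8 of 24 and 3 of 13 Ctrl_WT cells. It gave 3 of 13 and 3 of 28 in Ctrl_DSS, 4 of 32 and 2 of 364 in TG_WT and 7 of 246 and 14 of 335 in TG_DSS. Its part in the Pparg and Cd36 values was not tested. The difference between the 2 differences, (TG_DSS minus Ctrl_DSS) minus (TG_WT minus Ctrl_WT), was called for 0 members in epithelial-like cells, where 7 of 11870 genes were called, and for 0 in colonocyte-like cells.

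**Figure D5:**
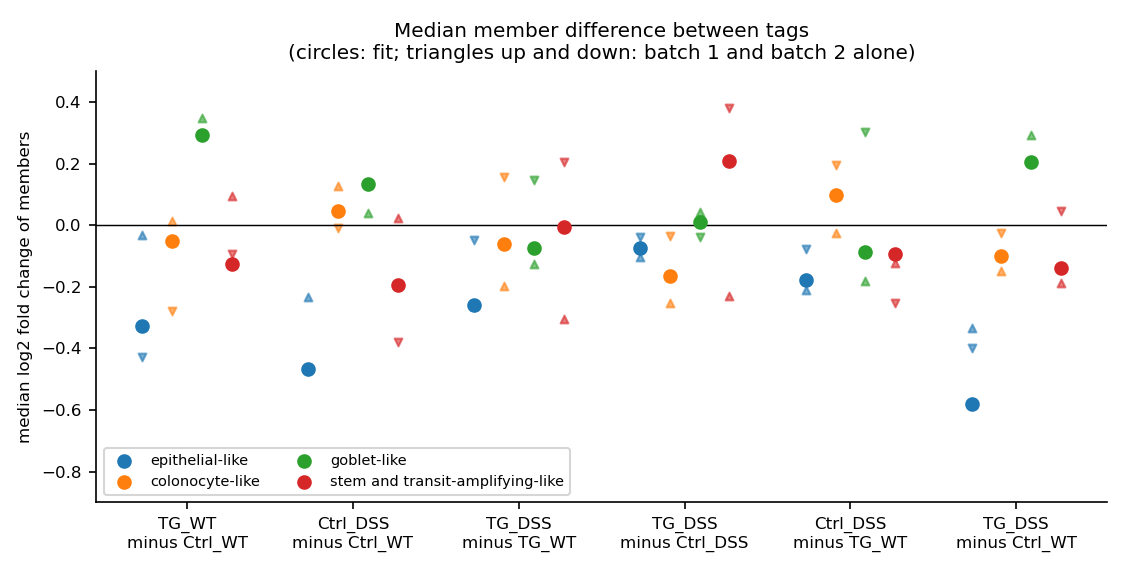
Median log2 difference of the members between tags in 4 classes; circles are medians of the fit, triangles pointing up and down the medians within batch 1 and batch 2 as differences of log2(CPM + 1) without TMM scaling. Epithelial-like circles reach -0.58, whereas colonocyte-like circles stay between -0.16 and 0.10 and most batch values of the other classes fall on both sides of 0.

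The wider list of 77 pathway genes, drawn up from textbook knowledge, showed what lay around the members. Of 68 tested by class, 31 were higher and 5 lower in colonocyte-like than in goblet-like cells (median 0.70), and 28 were higher and 5 lower than in stem and transit-amplifying-like cells (median 0.57), to be read against the same shares of all genes as above. Against enteroendocrine-like cells 33 were higher and 5 lower, against neutrophil-like 31 and 14, against macrophage and monocyte-like 40 and 10, and against T, NK and innate lymphoid-like 44 and 5. By part, regulators and PPAR targets had 9 of 13 higher than in goblet-like cells, peroxisomal oxidation 8 of 13, triglyceride storage and release 6 of 11, mitochondrial oxidation other than the members 3 of 13, and synthetases and uptake 3 of 14.

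Of the ketone body genes, Acat1 and Oxct1, the latter the transferase of ketone body use, were not called in colonocyte-like cells against goblet-like or against stem and transit-amplifying-like cells. Slc5a8, a sodium-coupled butyrate transporter, was higher than in goblet-like cells by 3.38 (SE 0.42), and Dgat2 and Mgll, of triglyceride synthesis and monoglyceride breakdown, by 1.97 (SE 0.25) and 2.42 (SE 0.35).

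By tag, 0 of 67 genes of the wider list passed in epithelial-like cells in any pair, with medians between -0.42 and -0.05, and 0 of 55 in colonocyte-like cells. Among those with the smallest p in Ctrl_DSS against Ctrl_WT were Slc27a4, a fatty acid transport protein, at -1.20 (SE 0.21, edgeR adjusted p = 0.058), Mgll at -1.12 (SE 0.25) and the transcription factor gene Hnf4g at -0.73 (SE 0.16). Unadjusted p below 0.05 were found for 1 higher and 13 lower genes in that pair and 1 higher and 16 lower in TG_DSS against Ctrl_WT. In stem and transit-amplifying-like cells 1 gene of the list passed: Fabp5, the epidermal fatty acid binding protein, was lower in TG_DSS than in TG_WT by -4.32 (SE 0.60, edgeR adjusted p = 0.020), with mean levels of 31.6 and 1164 CPM. These means rest on 20 and 10 TG_DSS cells and 53 and 16 TG_WT cells in batches 1 and 2. Of all genes 0.0631% were called in that pair.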

How the data were processed

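The deposited values are raw UMI counts over all barcodes, made by the authors with Cell Ranger 7.0.0 on mm10 per the submitters' processing notes. A barcode was called a cell where its UMIs reached 0.1 of a reference depth (the 99th percentile over the 14000 deepest barcodes), or where it held 500 UMIs or more and its profile differed from the ambient one (adjusted p at most 0.01). Cells under 250 genes or over 25% mitochondrial UMIs were removed. A cell over exactly 1 tag threshold kept that tag; the threshold method was replaced after tag counts were seen. Cells over several thresholds were dropped as doublets. Clustering used scanpy 1.11.5 (2000 variable genes, 30 principal components, Leiden resolution 1). A cluster led by haemoglobin genes stayed unnamed by a limit set after seeing it, and clusters mixing epithelial and neutrophil markers were left out. No cell annotation of the authors was used here.

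Counts were summed by class, tag and batch (at least 10 cells), scaled by TMM, filtered by edgeR's filterByExpr and tested by edgeR 4.0.16 (R 4.3.3), with Benjamini-Hochberg adjustment over all genes tested. Fits between tags held tag and batch, and fits between classes held class with each tag and batch pair as a block, since the labels give the replicate number as a shared batch. DESeq2 1.42.0 was an alternative, beside other filters, tag rules, cell gates, doublet removal and left-out sums. The procedure was tested on simulated data. Sums cover 304481 to 1900729 UMIs in colonocyte-like cells, which limits low genes. The members and the lists were chosen with earlier results of these data known. All members are accounted for by role; by rule, values in full are given for members past the test and, where fewer than 8 pass, for up to 12 with the highest mean, and the wider list is given by counts and up to 5 names. Some genes of the wider list are not reported here. Coordinates are from GENCODE M21 (mm10) and promoters from RefSeq (GRCm38.p6), counted from 1.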

Additional observations from a re-analysis of the deposited data

How the results depend on the processing

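Of 632 alternative values of 42 results, 580 were labelled the same and 52 moved. A median was the same where it stayed within the spread between batches, so that a change of sign within the spread also counted as the same. A count was the same where it was equal or close to the main count. The spread was pooled over the pairs of a class after a version with each pair's own SD, under which 116 moved, had been seen. In epithelial-like cells the members called over all pairs, 0 by edgeR, were 11 with DESeq2, 19 without a filter on low counts, 1 without the highest doublet scores, 2 without cells with 0.2% or more leukocyte UMIs, and 0 to 8 with 1 sum left out (8 without TG_WT of batch 1). The epithelial-like medians were -0.68 for Ctrl_DSS against Ctrl_WT and -0.39 for Ctrl_DSS against TG_WT with the highest-tag rule. Without cells with 2 or more leukocyte UMIs TG_DSS against Ctrl_WT was -0.35. Under the limit of 0.2%, chosen after seeing the data, TG_DSS was at -0.052 from TG_WT, 0.24 from Ctrl_DSS and -0.23 from Ctrl_WT; both limits remove whole cells, and so also change their number and mix. With 1 sum left out the medians ran from -0.41 to -0.076 (TG_WT against Ctrl_WT), -0.63 to -0.20 (Ctrl_DSS against Ctrl_WT), -0.34 to -0.053 (Ctrl_DSS against TG_WT) and -0.67 to -0.40 (TG_DSS against Ctrl_WT).

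Of the single members, Echs1 turned to 0.023 without a filter and ran from -0.12 to 0.039 with 1 sum left out, Etfb turned to 0.12 and, in TG_DSS against Ctrl_WT, Etfa to 0.041 without cells with 2 or more leukocyte UMIs, Etfb ran from -0.22 to 0.0089 and Fabp2 from -1.10 to 0.19, both in Ctrl_DSS against Ctrl_WT with 1 sum left out. In colonocyte-like cells the members called were 2 without a filter (Cd36 in both) and 1 with the highest-tag rule, under which the medians were 0.026 for TG_DSS against Ctrl_DSS and -0.071 for Ctrl_DSS against TG_WT. In goblet-like cells the members called were 2 with DESeq2, 1 with the highest-tag rule, 7 without a filter, 3 under a mitochondrial limit of 10% and 0 to 4 with 1 sum left out (4 without TG_WT of batch 2). Goblet-like medians were 0.31 for TG_DSS against TG_WT and 0.31 against Ctrl_DSS with the per-cell marker gate, and 0.024, -0.12 and -0.045 for TG_WT, Ctrl_DSS and TG_DSS against Ctrl_WT without the highest doublet scores; TG_DSS against TG_WT ran from -0.24 to 0.23. In stem and transit-amplifying-like cells the medians ran from -0.38 to -0.015 (Ctrl_DSS against TG_WT), -0.26 to 0.36 (TG_DSS against Ctrl_DSS) and -0.45 to 0.14 (TG_DSS against Ctrl_WT).

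Between classes, the colonocyte-like minus stem and transit-amplifying-like median was 0.91 with at least 30 cells, 0.79 with the highest-tag rule, 0.90 with the marker gate, 0.40 with the pathway genes kept in clustering and 0.39 with library-size scaling. It was 3.16 with DESeq2 and 3.86 with library-size scaling against neutrophil-like, 2.28 with the gate and 2.43 without the highest doublet scores against macrophage and monocyte-like, and 2.59 with the gate against T, NK and innate lymphoid-like cells. Members higher than in enteroendocrine-like cells were 6 with the gate and 17 to 27 with 1 batch left out, and Acsl5 against neutrophil-like cells turned to 0.59 with library-size scaling. Of 173 calls of members between classes the gate lost 28, leaving out batch 2 lost 41, and the other alternatives 1 to 10. Without the replicate block the epithelial-like median of Ctrl_DSS against Ctrl_WT was -0.46, 4 of the 173 class calls were lost, and no call between tags changed. The causes were not tested. Depth limits Acaa1b, Acot1, Acsl1 and Cd36, which rest on few UMIs in a sum.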

Other observations

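Outside the classes compared, the members were at 4088 and 2770 CPM without Fabp2 in 43 endothelial-like cells, of which Cd36 alone was 1629 and 1402 CPM, and at 2179 and 1623 CPM in fibroblast-like cells. Dendritic-like cells were at 1437 and 1071 CPM and plasma-like cells at 1193 and 713 CPM. Tuft-like cells held Slc25a20 at 149 and 201 CPM and Pparg at 234 and 259 CPM, near or above the colonocyte-like levels, in 90 and 51 cells. Ppargc1a was at 69.9 and 138 CPM in enteroendocrine-like cells against 39.1 and 38.9 CPM in colonocyte-like cells. The clusters that mixed epithelial and neutrophil markers held 3083 and 2937 CPM of the members without Fabp2.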
